A study of Mus musculus with 6 samples.

Results

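The 2-cell-like state genes were followed here in mouse embryonic stem (ES) cells that overexpress Sim2 and in their parental line. They were chosen by name as 6 genes, Zscan4c, Zscan4d, Zscan4f, Tcstv1, Tcstv3 and Zfp352. Of these, 4 were found among the 22602 genes of the table. Tcstv1 and Tcstv3 were not analysed here. The table held the mRNA level of each gene in 6 libraries in RPKM, the number of reads scaled to the length of the cDNA and to the depth of the library. Clones A6, B8 and C4 carried a Flag-tagged mouse Sim2 transgene under a modified CMV promoter in a ROSA-TET system that is switched on when tetracycline is removed, and gave 1 culture each. EB3 (EBRTcH3) is the parental line without the Sim2 transgene, and its 3 independent replicate cultures are named EB3-0, EB3-1 and EB3-2. All 6 cultures grew on gelatin in serum and LIF, and all 6 were kept without tetracycline for 26 h, so the EB3 cultures had the same withdrawal. The comparison asks which transcripts respond to SIM2, a transcription factor of the bHLH-PAS family. No clone was sampled with tetracycline here, so the effect of the transgene and other differences between the clones and their parent line cannot be told apart.

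In cultures of mouse ES cells a small minority of cells passes for a short time into a state that resembles the 2-cell embryo. Such cells switch on genes of the embryo's first wave of transcription, among them the Zscan4 cluster, Zfp352, the Tcstv genes and Usp17-like deubiquitinases, and endogenous retroviruses of the MERVL family. The transcription factor DUX is an activator of this programme, and chromatin repressors such as TRIM28 and the PRC1.6 complex hold it down. ZSCAN4 proteins carry a SCAN domain and zinc fingers and are known for a role in telomere maintenance. In bulk RNA a lower level can come from fewer cells in the state or from less RNA per cell, and these cannot be told apart.

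The Zscan4 genes lie in 1 cluster on chromosome 7, and Zfp352 lies alone on chromosome 4. In mm9 coordinates Zscan4c was listed at chr7:11591094-11595896 on the plus strand, Zscan4d at chr7:11746992-11751497 on the minus strand and Zscan4f at chr7:11983264-11987667 on the plus strand. Zfp352, which encodes another zinc finger protein, was listed at chr4:89885511-89892378 on the plus strand. An annotation of the same build gave Zscan4c, Zscan4d and Zscan4f 4 exons each and Zfp352 2 exons. The 100 bases upstream of these genes are shown because the Zscan4 copies share nearly all of them, read 5′ to 3′ along the strand of the gene from mm9, with each match to TATAAA in capitals. The first window, at chr7:11590971-11591070, ends 23 bases before the listed start of Zscan4c. The second, at chr7:11751532-11751631, ends 34 bases before that of Zscan4d. Those of Zscan4f (chr7:11983164-11983263) and Zfp352 (chr4:89885411-89885510) end at the start itself.
Zscan4c: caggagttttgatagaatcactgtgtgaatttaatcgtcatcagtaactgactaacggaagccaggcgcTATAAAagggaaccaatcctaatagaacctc
Zscan4d: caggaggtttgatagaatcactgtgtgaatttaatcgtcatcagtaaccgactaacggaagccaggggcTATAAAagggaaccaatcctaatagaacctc
Zscan4f: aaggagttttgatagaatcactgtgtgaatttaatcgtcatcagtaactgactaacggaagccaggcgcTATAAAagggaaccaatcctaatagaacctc
Zfp352: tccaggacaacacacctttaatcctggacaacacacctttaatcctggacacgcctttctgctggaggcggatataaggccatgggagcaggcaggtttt

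The 3 Zscan4 windows differed at 4 of 100 positions, and those of all 6 listed Zscan4 genes differed at 7 of 100. The letters TATAAAAGG were found once in the 250 bases upstream of each of the 6 Zscan4 genes and not upstream of Zfp352. On either strand, 0.59% of 22599 genes held these letters in the same length, and 12.05% held the shorter TATAAA that lies inside them. ACGTG, a core element described for SIM and ARNT dimers, was in 17.84% of these windows. GATTNAATC, letters of a DUX-type site, was in 0.2%. Neither had a match in the 250 bases upstream of the 4 genes shown or of the other Zscan4 genes. The transcripts of the copies are also close to each other, with 99.43% identity between Zscan4c and Zscan4f and 97.59% between Zscan4c and Zscan4d. Of the 100-base windows along the exons, 29.61% were found only once in the genome for Zscan4c, 72.48% for Zscan4d, 5.32% for Zscan4f and 99.33% for Zfp352. How reads with several equal positions were treated is not given in the sources used here, so the division of reads among the Zscan4 copies is uncertain, and their sum is given beside the single genes.

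Sim2 itself checked the labels, at 196, 212 and 168 RPKM in clones A6, B8 and C4 and at 0.1298, 0.0917 and 0.104 RPKM in EB3-0, EB3-1 and EB3-2. Depth was 25095861 to 28269340 reads, and 1 read in a cDNA of 2000 bases was worth 0.0177 to 0.0199 RPKM. EB3-1 and EB3-2 stood closest to each other, with Pearson's r of 0.997 over 11595 genes, and EB3-0 stood apart from them, with r of 0.980 and 0.981. Among the clones r ranged from 0.979 to 0.993. These coefficients are across genes, which are not independent replicates. The ES cell markers were Pou5f1, Sox2, Nanog, Zfp42, Utf1 and Esrrb. Their sum was at 90.6%, 95.03% and 91.2% of the EB3 mean in A6, B8 and C4, with Pou5f1 the largest part. Esrrb lay above EB3 in every clone and Zfp42 below EB3 in every clone, and the other markers overlapped between the groups. Among all genes with a read, 10.2% lay above EB3 in every clone and 11.5% below. Of the 6 markers 0 passed the test, against 0.699% of all tested genes.

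All listed Zscan4 copies were at lower levels in the 3 Sim2 clones than in the 3 EB3 cultures, with B8 and C4 the lowest, but the single genes did not pass the adjusted threshold. The level of Zscan4c was 1.07, 0.0341 and 0.0311 RPKM in A6, B8 and C4, and 2.45, 1.71 and 1.58 RPKM in EB3-0, EB3-1 and EB3-2. These values rest on 61, 2 and 2 reads in the clones and on 152, 104 and 94 reads in EB3. The groups did not overlap, and A6 lay between the other clones and EB3. The mean level was 0.378 ± 0.598 RPKM (SD, n = 3) in the clones and 1.91 ± 0.467 (SD, n = 3) in EB3, a ratio of 5.06. On the log2(RPKM + 0.5) scale the difference was -1.64 (SE 0.41), with an unadjusted p of 0.00368 and an adjusted p of 0.105 in limma, so it did not pass the threshold of 0.05 on the adjusted p.

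Zscan4d had the highest mean level of the 4 genes. It was at 1.38, 0.175 and 0.124 RPKM in A6, B8 and C4, and at 3.62, 2.42 and 2.42 RPKM in EB3-0, EB3-1 and EB3-2. Again the 3 clones lay below the 3 cultures of EB3, with A6 nearest to them. The means were 0.560 ± 0.711 RPKM (SD, n = 3) and 2.82 ± 0.693 (SD, n = 3), a ratio of 5.04, and the log2 difference was -1.82 (SE 0.40) with an adjusted p of 0.0847 in limma. A 2-sided exact permutation test gave p = 0.1 for Zscan4c and for Zscan4d, the smallest p that 3 libraries against 3 allow.

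Zscan4f was at 0.305, 0.0212 and 0.193 RPKM in A6, B8 and C4, and at 0.701, 0.879 and 0.524 RPKM in EB3-0, EB3-1 and EB3-2. The groups did not overlap. Its mean was 0.173 ± 0.143 RPKM (SD, n = 3) in the clones and 0.701 ± 0.178 (SD, n = 3) in EB3, a ratio of 4.05 with a 2-sided exact permutation p of 0.1. It lay under the minimum mean of 1 RPKM for the test. With that minimum at 0.1 RPKM its log2 difference was -0.85 (SE 0.19) and its adjusted p was 0.0913 in limma.

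Zfp352 was barely detected. It had 5 reads in A6 and 0 in B8 and C4, and 4, 8 and 16 reads in EB3-0, EB3-1 and EB3-2. The levels were 0.0881 RPKM in A6 and 0.0648, 0.132 and 0.271 RPKM in the EB3 cultures, so A6 lay above EB3-0 and the groups overlapped. A count of 0 allows up to 0.0515 RPKM in B8 and 0.0469 in C4, taking 3 reads as the limit. Both mates of a pair were counted, so reads are not independent and a limit in fragments would lie higher. The difference of the means, 0.0294 ± 0.0509 RPKM (SD, n = 3) against 0.156 ± 0.105 (SD, n = 3), had a 2-sided exact permutation p of 0.2.

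**Figure D1:**
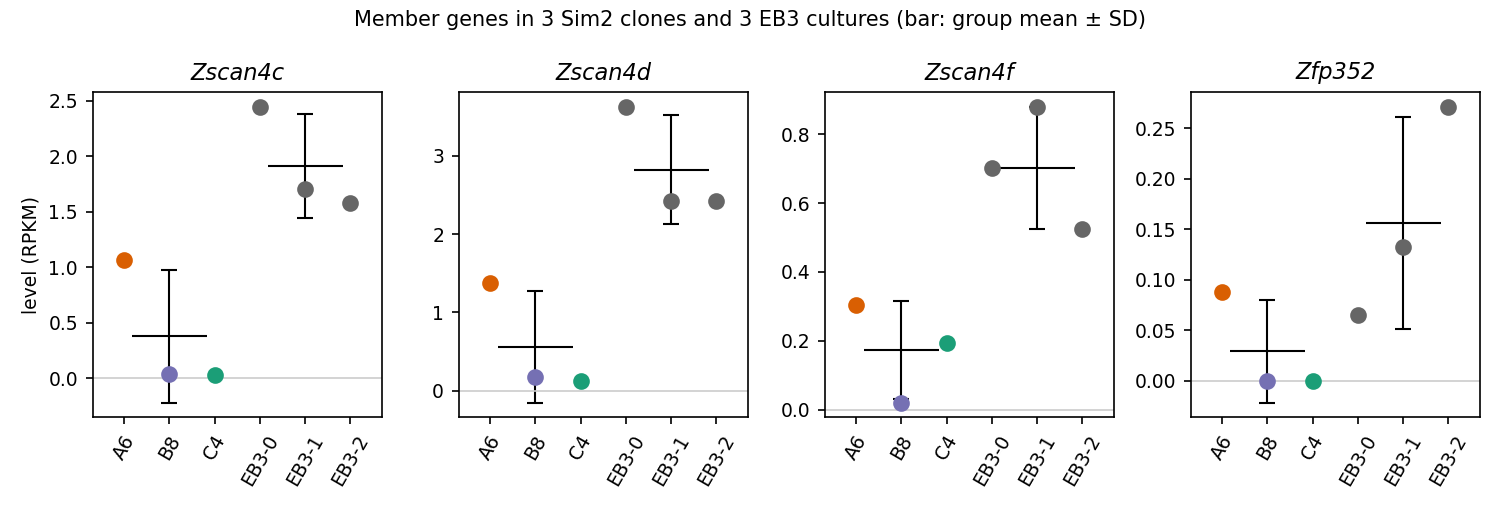
Level in RPKM (vertical axis, a separate scale for each gene) of Zscan4c, Zscan4d, Zscan4f and Zfp352 in clones A6, B8 and C4 and in cultures EB3-0, EB3-1 and EB3-2. Each point is 1 library and the bars give the group mean ± SD (n = 3). Zscan4c at 1.07 RPKM in A6 lies between 0.0311 to 0.0341 in the other clones and 1.58 to 2.45 in EB3, whereas for Zfp352 A6 lies within the EB3 range.

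Among the 2 genes tested, Zscan4c and Zscan4d, 0 passed the adjusted threshold, against 0.699% of 11595 genes (81 genes). Both had an unadjusted p under 0.05 and were lower in the clones, as did 9.36% of all tested genes, and limma-voom on the recovered reads also called 0 of the 2. For 3 of the 4 listed genes every clone lay below every EB3 culture, a pattern seen in 11.5% of the 17963 genes with a read. A6 was below every EB3 culture and above both other clones for the same 3 genes, the 3 Zscan4 copies, against 4.87% of genes with a read. With A6, B8, C4, EB3-0, EB3-1 or EB3-2 left out, the share of genes whose groups did not overlap in this direction was 17.3%, 15.8%, 14.2%, 22.6%, 14.4% and 14.6%, and 3 or 4 of the 4 genes did so. The clones thus varied widely for these genes: the SD over clones was 0.90 for Zscan4c and 0.89 for Zscan4d on the log2(RPKM + 0.5) scale, where the median of tested genes was 0.14 and 99.6% of them had a smaller SD. Without A6 both genes passed the threshold, with log2 differences of -2.16 (SE 0.23) and -2.34 (SE 0.23) and adjusted p of 0.0344 and 0.0341 in limma, against 0.172% of genes called in that fit. Leaving out any other library gave adjusted p of up to 0.29 for Zscan4c and 0.257 for Zscan4d in limma.

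Summed over the 4 genes, the level was 2.84, 0.231 and 0.349 RPKM in A6, B8 and C4, and 6.84, 5.14 and 4.80 RPKM in EB3-0, EB3-1 and EB3-2. That is 50.8%, 4.12% and 6.24% of the EB3 mean in the 3 clones. The group means of the sum were 1.14 ± 1.47 RPKM (SD, n = 3) and 5.59 ± 1.09 (SD, n = 3), a ratio of 4.91 or a log2 ratio of -2.29, which moved to -4.27 without A6. EB3-0, the library apart from the other EB3 cultures, had the highest sum. Its log2 level minus the mean of EB3-1 and EB3-2 was 0.46 for Zscan4c, 0.50 for Zscan4d, 0.016 for Zscan4f and -0.31 for Zfp352. At the median of 1382 tested genes of like cDNA length this difference was 0.13. Counting EB3-1 and EB3-2 as 1 sample gave adjusted p of 0.268 for Zscan4c and 0.26 for Zscan4d in limma, with 6 genes called in all.

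The other Zscan4 genes placed the clones below EB3 as well, with A6 the highest clone. Zscan4a was at 1.501, 0.0688 and 0.266 RPKM in A6, B8 and C4, and at 3.44, 2.35 and 2.17 RPKM in EB3-0, EB3-1 and EB3-2, with a log2 difference of -1.70 (SE 0.43) and an adjusted p of 0.106 in limma. Zscan4b was at 0.204, 0 and 0.161 RPKM in A6, B8 and C4, and at 0.334, 0.384 and 0.874 in the EB3 cultures. Zscan4e was at 0.548, 0.0890 and 0.203 RPKM in the clones and at 1.13, 0.621 and 0.703 in EB3. For both genes the clones lay below EB3, and both were under the minimum for the test. The sum of all 6 Zscan4 genes, which depends less on how reads were divided among them, was 5.01, 0.388 and 0.979 RPKM in A6, B8 and C4, or 53.0%, 4.11% and 10.4% of the EB3 mean, and 11.7, 8.37 and 8.28 RPKM in EB3. Zscan4d gave 27.6% of it in A6 and 28.9% to 31.0% in EB3, and Zscan4c gave 21.3% and 19.1% to 21.0%. In B8 Zscan4d gave 45.1% and Zscan4f 5.46%, and in C4 they gave 12.7% and 19.8%, though B8 and C4 had only 20 and 54 Zscan4 reads in all.

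Genes known to be expressed along with Zscan4 also lay mostly lower in the clones. The Usp17-like and Dub genes encode deubiquitinases found in tandem copies. The 10 named symbols, some of them synonyms of each other, matched 4 listed genes, with 0 at the minimum for the test. Usp17l5 was at 0.235, 0.0457 and 0.167 RPKM in A6, B8 and C4 and at 0.864, 0.507 and 0.632 in the EB3 cultures. Dub2a had 0 reads in the 3 clones and 37 reads in EB3, at 0.403, 0.183 and 0.257 RPKM. Dub1 did not overlap between groups either, while Dub1a at 0.708 RPKM in A6 lay within its EB3 range of 0.463 to 1.54. The sum of the 4 genes was 55.7% of the EB3 mean in A6, 4.73% in B8 and 20.3% in C4.

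Of 38 other named 2-cell-like genes 30 were listed, 7 of them at 0 in every library. Only 4 were tested and 0 passed the threshold, against 0.699% of all tested genes. Gm5662 was at 0.866, 0.169 and 0.115 RPKM in A6, B8 and C4 and at 2.43, 1.79 and 1.77 in the EB3 cultures, with a log2 difference of -1.59 (SE 0.31) and an adjusted p of 0.0714 in limma. It passed with the trend on cDNA length removed (adjusted p 0.0432) and without A6 (adjusted p 0.0381), as did Zscan4a without A6 (adjusted p 0.0423), all in limma. Zfp750, a zinc finger gene also known from skin, was at 4.07, 2.20 and 2.65 RPKM in the clones and at 5.32, 4.54 and 4.76 in EB3, with an adjusted p of 0.157 in limma. Gm8994 had overlapping groups, with a log2 difference of -0.12. Calcoco2, an autophagy receptor gene, was at 12.5, 24.9 and 7.14 RPKM in A6, B8 and C4 and at 9.23 to 20.1 in EB3, a log2 difference of 0.09. The sum over the 30 genes was 79.9%, 98.5% and 51.75% of the EB3 mean in A6, B8 and C4, so that B8 was the highest clone here, and most of this sum came from Calcoco2 and Gm8994. With the minimum mean at 0.1 RPKM, 2 genes of this list passed in limma, against 0.525% of genes called there. They were Gm2022, at -1.37 (SE 0.19) with an adjusted p of 0.0282, and Gm12794, at -0.79 (SE 0.13) with an adjusted p of 0.0480, and both are named here after their values were seen.

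Over these 3 lists together, with the 4 genes above left out, 30 genes had a read. In 17 of the 30 every clone lay below every EB3 culture and in 0 every clone lay above, against 11.5% and 10.2% of all genes with a read. Of the 23 with a mean of at least 0.1 RPKM, 22 had a lower mean in the clones, and the median log2 difference was -0.71. Over all 14662 genes at that level 7568 were lower and the median was -0.01. A6 lay between the other clones and EB3 for 15 of the 30 genes, against 4.87% of genes with a read. These genes were listed with earlier results of these data known, many are near copies of each other, and they share the same 6 libraries, so their counts are a description.

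**Figure D2:**
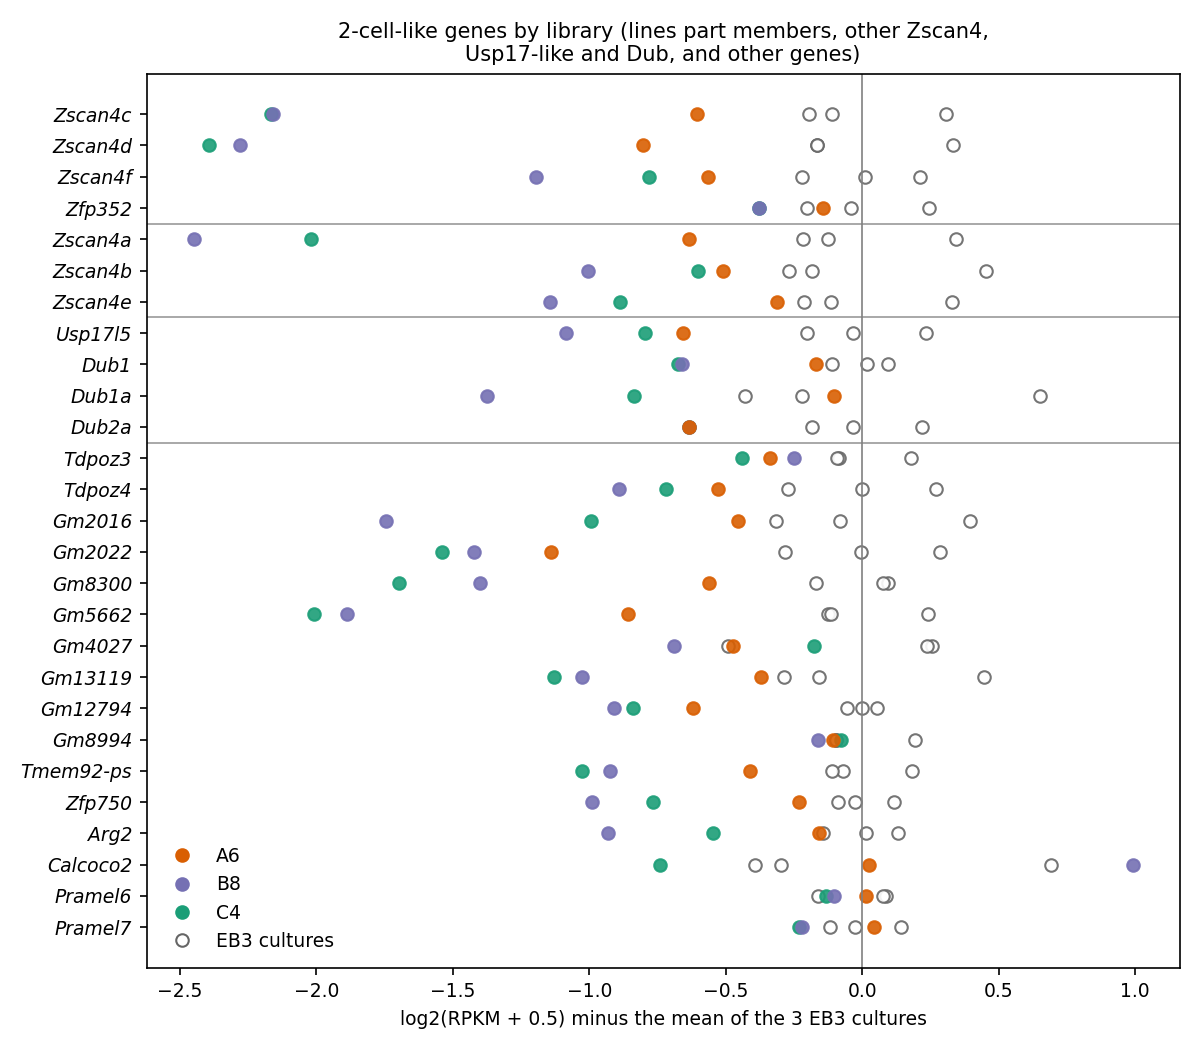
Level of each gene in each library as log2(RPKM + 0.5) minus the mean of the 3 EB3 cultures (horizontal axis), for the 4 genes chosen by name, the other Zscan4 genes, the Usp17-like and Dub genes and the other 2-cell-like genes with a mean of at least 0.1 RPKM. Filled points are clones A6, B8 and C4 and open points the EB3 cultures, and clones at equal values cover each other (all 3 at 0 RPKM for Dub2a). Most rows show B8 and C4 farthest left, A6 next and EB3 on the right, and Calcoco2 shows B8 on the far right.

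**Figure D3:**
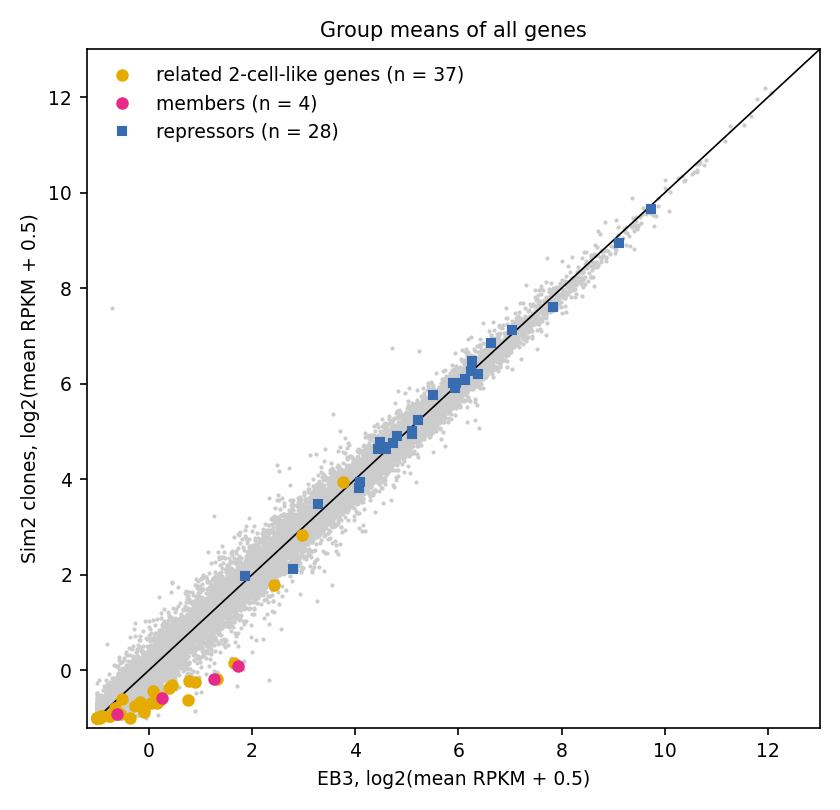
Mean level in the 3 Sim2 clones (vertical axis) against the mean in the 3 EB3 cultures (horizontal axis), both as log2(mean RPKM + 0.5), for all 22602 genes in grey. The 4 genes chosen by name and most of the 37 related 2-cell-like genes lie below the line of equal levels, and the 28 repressors lie along it.

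Known activators of the 2-cell-like programme showed no called difference. All 11 named genes were listed, 6 were tested and 0 passed, against 0.699% of all tested genes. The median log2 difference of the 6 was -0.15. At an unadjusted limma p under 0.05, 1 was lower and 0 higher, against 9.36% and 8.4% of all tested genes. Of the 11 genes 3 had 0 reads in every library. Every clone lay below every EB3 culture for 2 of the 8 with a read and above for 0, against 11.5% and 10.2% of all genes with a read. Dux, the factor that binds many of these promoters, was under the minimum for the test and is named after its values were seen. It had only 4 reads in the clones and 29 in EB3. Its levels were 0.0394, 0 and 0.0349 RPKM in A6, B8 and C4 and 0.380, 0.0739 and 0.0757 RPKM in the EB3 cultures, with no overlap and a 2-sided exact permutation p of 0.1. Dppa2 and Dppa4 encode partner proteins upstream of Dux, and their log2 differences were -0.20 and -0.24, with adjusted p of 0.539 and 0.256 in limma. Dppa3, a maternal factor gene, was at 2.99 RPKM in B8 against 14.1 in A6, 15.8 in C4 and 14.6 to 21.1 in EB3, a difference of -0.90 (SE 0.52) with an adjusted p of 0.414 in limma. Tbx3 and Nelfa (listed as Whsc2) had log2 differences of 0.16 and 0.06.

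Repressors of the programme showed no called difference either. All 28 named genes were tested and 0 passed, against 0.699% of all tested genes. Their median log2 difference was 0.04. At an unadjusted p under 0.05, 2 were higher and 2 lower, against 8.4% and 9.36% of all tested genes. Setdb1 and Ehmt2, which encode methyltransferases of histone H3 lysine 9, were at 0.26 (SE 0.10) and 0.21 (SE 0.08) above EB3 on the log2 scale, with adjusted p of 0.245 and 0.25 in limma. The DNA-binding subunit gene E2f6 of PRC1.6 was at -0.26 (SE 0.10), and Cbx3, which encodes a heterochromatin protein, at -0.65 (SE 0.22), with adjusted p of 0.238 and 0.190 in limma. L3mbtl2, another PRC1.6 subunit gene, was at 0.20 (SE 0.09) with an adjusted p of 0.295 in limma. Every clone lay below every EB3 culture for 4 of the 28 genes and above for 4, against 11.5% and 10.2% of all genes with a read. A6 lay between the other clones and EB3 for 0 of the 28, against 4.87%.

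Genes of telomere protection and of recombination were examined because ZSCAN4 acts at telomeres. Of 12 listed genes 11 were tested, and 0 passed the adjusted threshold, against 0.699% of all tested genes, with a median log2 difference of -0.04. None of the 11 (0 lower, 0 higher) had an unadjusted p under 0.05, against 9.36% lower and 8.4% higher among all tested genes. The shelterin genes Terf1, Terf2ip, Acd and Pot1a were at -0.24, 0.23, 0.23 and -0.17, with adjusted p of 0.325 to 0.472 in limma. Smc1b, a meiotic cohesin gene, was at 1.65, 0.557 and 0.762 RPKM in A6, B8 and C4 and at 1.36 to 1.89 in EB3, so that A6 overlapped EB3, and its difference of -0.59 (SE 0.27) had an adjusted p of 0.310 in limma.

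**Figure D4:**
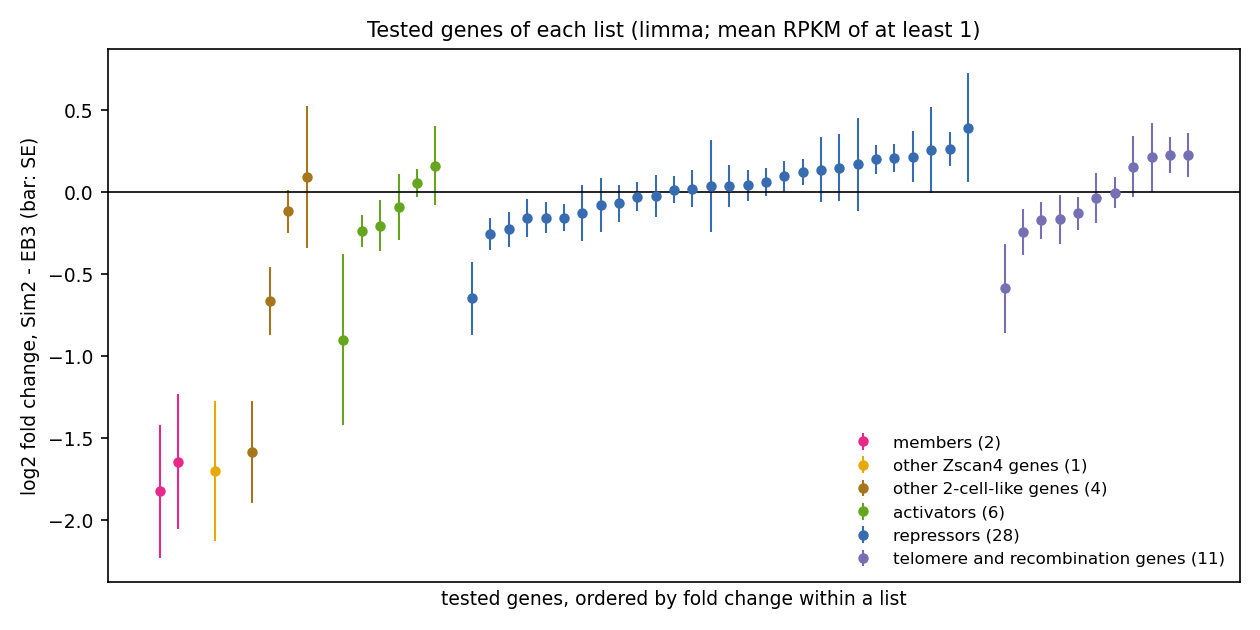
Log2 fold change of Sim2 clones over EB3 on the log2(RPKM + 0.5) scale (vertical axis, bars give the SE) for the tested genes of each list, ordered by fold change within a list (horizontal axis). Zscan4c, Zscan4d, Zscan4a and Gm5662 lie between -1.82 and -1.59, and the 28 repressors lie between -0.65 and 0.39.

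Genes next to the Zscan4 cluster and to Zfp352 were compared too. Within 500 kb there were 11 listed genes outside the lists, and 10 had 0 reads in every library. The remaining gene, Gm6900, was at 97.3, 88.9 and 102.6 RPKM in A6, B8 and C4 and at 116, 107 and 106 in the EB3 cultures, a log2 difference of -0.19 (SE 0.09) with an adjusted p of 0.320 in limma.

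Markers of other cell types that such cultures could hold were given by their sums. The 5 primitive endoderm genes summed to 3.75 to 4.97 RPKM in the clones and 2.43 to 3.23 in EB3, with all 5 detected. Sox17, at 0.280 to 0.298 RPKM in the clones and 0.0239 to 0.117 in EB3, and Gata4 lay above EB3 in every clone. Sox7, the largest part of the sum, Gata6 and Dab2 overlapped between the groups. The 5 trophectoderm genes summed to 7.44, 14.3 and 8.04 RPKM in A6, B8 and C4 and to 6.16 to 6.27 in EB3. Most of this sum came from Krt18. Krt18 and Cdx2 lay above EB3 in every clone, and Eomes and Gata3 overlapped between the groups. Elf5 lay the other way, below EB3 in every clone, with 5 reads in the clones (0 in B8) and 15 in EB3. The 4 neural genes summed to 85.0 to 106 RPKM in the clones and 125 to 143 in EB3, and this direction is that of Tubb3, at 70.4 to 95 RPKM in the clones and 113 to 133 in EB3. Tubb3 had a log2 difference of -0.60 (SE 0.12) and an adjusted p of 0.0751 in limma. Nes lay the other way, at 8.30 to 9.15 RPKM in the clones and 5.75 to 6.03 in EB3, with a log2 difference of 0.54 (SE 0.11) and an adjusted p of 0.0787 in limma, and Sox1 and Pax6 overlapped between the groups. The 3 mesoderm genes summed to 2.23 to 2.55 RPKM in the clones and 1.62 to 2.13 in EB3. Kdr lay above EB3 in every clone, and T and Mixl1 overlapped between the groups. The mean of Mixl1 was lower in the clones, at 0.296 against 0.438 RPKM. The 5 fibroblast genes summed to 10.7 to 13.8 RPKM in the clones and 10.05 to 13.3 in EB3, nearly all from Thy1, with Postn at 0 in all libraries. Single markers without overlap stand against 10.2% of all genes with a read that lay above EB3 in every clone and 11.5% below. Many of these marker genes were under the minimum for the test, Sox17 among them. Tested were 1 primitive endoderm, 2 trophectoderm, 4 neural, 1 mesoderm and 1 fibroblast gene. Of these tested genes 0 passed, against 0.699% of all tested genes. Among the clones the primitive endoderm sum was highest in A6 and the trophectoderm sum in B8. The part of other cell types in the Zscan4 levels was not tested.

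**Figure D5:**
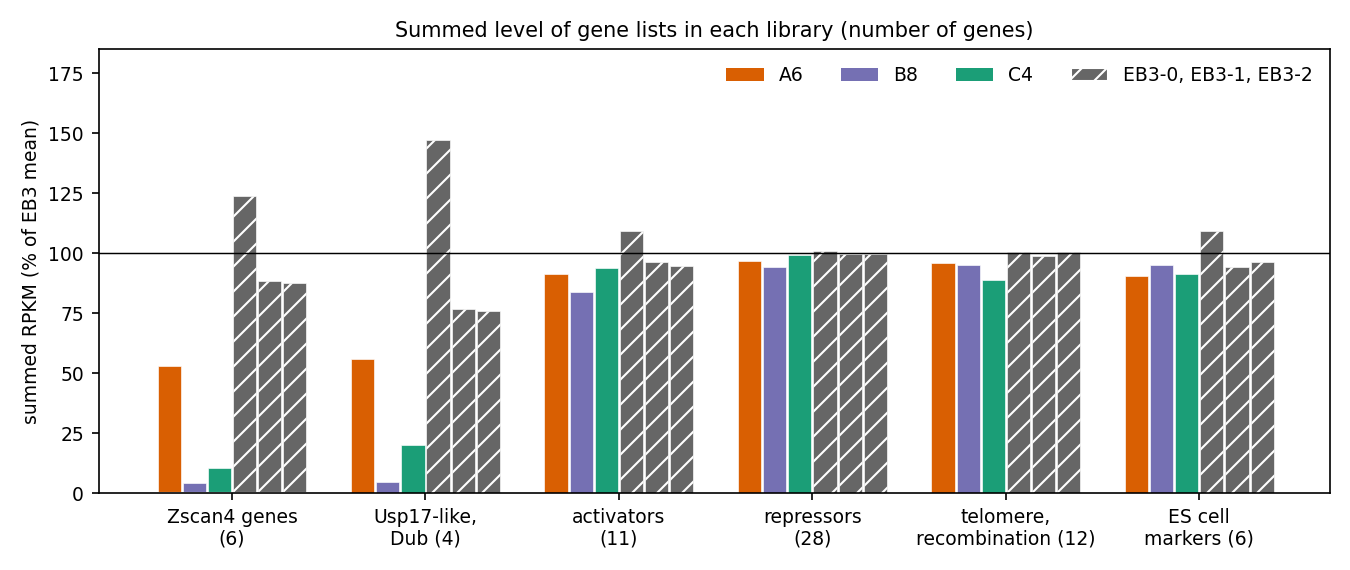
Summed RPKM of each gene list in each library as a percentage of the mean of the 3 EB3 cultures (vertical axis from 0), with 1 bar for each library. The Zscan4 genes stand at 53.0%, 4.11% and 10.4% in A6, B8 and C4, and the sums of activators, repressors, telomere and recombination genes and ES cell markers at 83.7% or more in every clone. Most of the activator sum is Dppa2 and Dppa4. Dux, at 0.380 RPKM or less in every library, hardly counts in it.

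Genes with levels like the summed level of the 4 genes were sought among 1385 tested genes outside all the lists above. These candidates ranged over at least 1 on the log2 scale. The related 2-cell-like genes, Zscan4a and Gm5662 among them, were left out of this search. Over the 6 libraries Pearson's r was 0.990 for Slc11a1, 0.985 for Gsta3, 0.983 for 1810022K09Rik, 0.976 for Gm5039 and 0.972 for Sohlh2. With 6 points that fall in 2 groups, these are descriptions. Slc11a1, a metal transporter gene of phagosomes, was at 1.64, 0.472 and 0.660 RPKM in A6, B8 and C4 and at 3.53, 2.39 and 2.59 in EB3-0, EB3-1 and EB3-2. Gsta3, a glutathione transferase gene, was at 5.19, 2.92 and 3.20 RPKM in the clones and 8.95, 8.43 and 8.11 in EB3. Sohlh2, a bHLH factor gene of germ cells, was at 3.94, 1.34 and 2.31 RPKM and at 9.02, 6.47 and 5.96. Their log2 differences were -1.299, -1.11 and -1.41, with adjusted p of 0.0904, 0.0602 and 0.0847 in limma. For 1810022K09Rik and Gm5039 the log2 differences were -0.60 and -1.295, with adjusted p of 0.163 and 0.147 in limma. The genes were picked for following a sum that was lower in the clones, so these differences are descriptions too. Among the 4 genes themselves r was 0.998 for Zscan4c with Zscan4d, 0.902 and 0.899 for Zscan4f with these, and 0.624 to 0.707 for Zfp352 with the 3 others. All 3 Zscan4 copies can share reads, and of these Zscan4f had the smallest part of windows found only once, 5.32%.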

How the data were processed

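The authors mapped paired reads to mm9 with BWA, which the submitters' processing notes also name, and deposited RPKM per RefSeq gene with the cDNA length. Strand use and the treatment of reads with several positions are not given in the sources used here. Depth came from the file: RPKM times cDNA length was a whole multiple of 1 step per library for 100% of values (tolerance 0.001). More genes had 2 reads than 1 (742 against 199 in A6), so mates of a pair were counted, reads are not independent, and the limit at 0 reads covers counting error of reads only. Listed starts count from 0 and are printed plus 1.

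Values were log2(RPKM + 0.5), which understates changes of low genes. Genes with a mean of at least 1 RPKM (11595, 51.3%) were tested with limma 3.58.1 (R 4.3.3, lmFit, eBayes with an intensity trend) over 6 libraries with no covariate, Benjamini-Hochberg adjusted, and called under 0.05. Single genes also had a 2-sided exact permutation test. Each clone gave 1 library, so p-values measure the spread between clones and between EB3 replicates. Alternatives were other pseudocounts, minimums, scaling and length correction, limma-voom on recovered reads, EB3-1 and EB3-2 averaged, and each library left out. Identity and windows used mm9 and Python 3.11.15. Lists were matched by symbol and RefSeq synonym. Named from each list were at most 5 genes, those of smallest p among tested genes or else of highest mean RPKM. Also named were the 5 tested genes outside the lists that were most like the summed level. Outside this rule, Zscan4b, Zscan4e, Dux, Gm2022, Gm12794 and the cell type markers were named after their values were seen. Genes and lists were chosen with earlier results of these data known. Columns of per-sample values left unused numbered 0.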

Additional observations from a re-analysis of the deposited data

How the results depend on the processing

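Over all genes 81 passed (40 higher, 41 lower). This count became 289 with the cDNA length trend removed (167 higher, 122 lower), 23 with no minimum level (8 higher, 15 lower) and 6 with EB3-1 and EB3-2 averaged, and it ranged from 6 to 694 with 1 library left out, the 694 without EB3-0. It was 64 to 81 under the other pseudocounts, the minimum of 0.1 RPKM, upper-quartile scaling and limma-voom. The causes were not tested. Of Zscan4c and Zscan4d, 0 passed under every setting except without A6, so that the count ranged from 0 to 2 with 1 library left out. Their log2 differences stayed negative in all 15 fits each, from -4.00 in limma-voom to -1.15 at a pseudocount of 1 for Zscan4c and from -3.13 to -1.37 for Zscan4d. Adjusted p ranged from 0.0344 to 0.312 and from 0.0341 to 0.267 in limma. The log2 ratio of the summed level ranged from -4.27 to -1.81 with 1 library left out (-4.27 without A6) and was -2.37 with EB3-1 and EB3-2 averaged. Leaving out 1 library, an alternative chosen after seeing the data for these counts, left 3 to 4 of the 4 genes and 17 to 21 of 30 related genes with every clone below every EB3 culture. No paired analysis was possible because clones and EB3 cultures share no replicate numbers. Depth limits Zfp352, with 5 reads in the clones and 28 in EB3, and Dux. The Zscan4 copies are limited by shared sequence.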
